A study of Mus musculus with 6 samples.

Results

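Id1, Id2, Id3 and Id4, the 4 members of the Id (inhibitor of DNA binding) family, were followed across 6 single-colour Affymetrix arrays of mouse embryonic stem cells. The 4 genes are among 18193 with a probe set of their own on the array. Every probe set that the platform annotation assigns to 1 of them and to no other gene was taken, 8 of the 45037 tested: 1 for Id1, 3 for Id2, 1 for Id3 and 3 for Id4. The cells were E14Tg2a, an established mouse embryonic stem cell line, and all groups, the untreated one included, were kept in N2B27, a defined medium, to which 20 ng/ml BMP4 and 1000 U/ml LIF had been added. One group received activin at 10 ng/ml for 2 h, another the compound SB431542 at 5 µM for 24 h, and the control group was left untreated, with 2 arrays in each of the 3 groups. No vehicle and no separate control for each duration is stated for the untreated cells, so treatment and time in culture cannot be told apart. Whether the 2 arrays in a group were hybridised with RNA of different cultures is not stated, so the p-values reflect array-to-array spread that could be purely technical.

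Id proteins have a helix-loop-helix domain but no DNA-binding basic region. They pair with E proteins, the common partners of basic helix-loop-helix (bHLH) factors, and so keep those factors off DNA. Id genes are direct targets of BMP signalling through Smad1 and Smad5, and in embryonic stem cells grown with LIF their induction by BMP4 holds back neural differentiation. Activin and Nodal signal through a separate set of type I receptors and Smad2/3, and SB431542 inhibits the kinase of those receptors, not that of the BMP type I receptors.

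The table of RefSeq promoters (build GRCm38.p6, 250 bases before to 50 bases after the annotated start) held 3 of the 4 Id genes. They are shown because the results below turn on these genes, and are written 5′ to 3′ on the gene's strand. Capitals mark matches to 2 of the 5 motifs searched on both strands: GGCGCC, a GC-rich sequence bound by BMP Smads, and CANNTG, the E box bound by bHLH factors.
Id2 promoter, chr12:25096043-25096342, minus strand: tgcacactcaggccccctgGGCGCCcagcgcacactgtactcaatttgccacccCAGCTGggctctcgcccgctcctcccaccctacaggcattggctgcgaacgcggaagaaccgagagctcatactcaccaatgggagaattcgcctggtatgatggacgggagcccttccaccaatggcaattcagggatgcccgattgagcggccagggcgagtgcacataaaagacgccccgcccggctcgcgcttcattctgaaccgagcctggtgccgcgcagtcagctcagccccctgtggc
Id3 promoter, chr4:136143572-136143871, plus strand: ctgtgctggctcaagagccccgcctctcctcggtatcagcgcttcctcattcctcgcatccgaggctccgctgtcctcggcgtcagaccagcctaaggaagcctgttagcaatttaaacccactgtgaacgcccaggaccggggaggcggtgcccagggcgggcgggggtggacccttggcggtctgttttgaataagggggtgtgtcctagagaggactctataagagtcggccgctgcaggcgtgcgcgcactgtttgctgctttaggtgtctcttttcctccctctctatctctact
Id4 promoter, chr13:48260866-48261165, plus strand: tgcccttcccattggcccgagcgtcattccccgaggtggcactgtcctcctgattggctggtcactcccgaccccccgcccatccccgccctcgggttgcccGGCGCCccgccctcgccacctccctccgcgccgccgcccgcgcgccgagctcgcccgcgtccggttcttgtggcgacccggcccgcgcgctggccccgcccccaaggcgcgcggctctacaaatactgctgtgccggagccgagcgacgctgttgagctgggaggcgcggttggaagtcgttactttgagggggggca
GGCGCC occurred once in the Id2 window, with its first base at −231 from the start, and once in the Id4 window, at −148. It was present in 11.9% of all 32851 promoters of this length. CANNTG occurred once in the Id2 window, at −196, and in 72.3% of all promoters, and it did not overlap the GGCGCC match. The Id3 window held no match to any of the 5 motifs. The other 3 motifs were CAGACA and GTCTAGAC, 2 Smad-binding sequences, and ATTTGCAT, the octamer bound by Oct4. None of these 3 matched in the 3 windows, and they occurred in 21.0%, 0.213% and 1.74% of all promoters. A match describes the letters in the window and is no evidence of binding.

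All 8 Id probe sets had a higher mean than control after SB431542. With an intensity trend and robust estimation, fewer passed after activin than after SB431542. After activin, Id3 and 1 of 3 Id2 probe sets fell by limma with an intensity trend and robust estimation, to 0.486 and 0.640 of control. Of all probe sets, 0.0200% were called lower by that test. The Id2 call was lost with the trend alone (limma adjusted p = 0.0864). Id1 and the 3 Id4 probe sets did not pass after activin. After SB431542, 7 of 8 Id probe sets were called higher with the trend and robust estimation, by 1.39-fold to 3.03-fold, where 3.38% of all were called higher. With the trend alone 5 of 8 were called higher. By limma at its default settings 0 of 8 passed in any comparison, where at most 0.0200% of all probe sets did. Its unadjusted p was under 0.05 for 3 of 8 after activin (6.21% of all) and 8 of 8 after SB431542 (13.0% of all). The default test gives every probe set the same prior variance, and the intensity trend, which here always includes robust estimation unless called the trend alone, lets that prior follow the level of the probe set. Both were adjusted by Benjamini-Hochberg over all 45037 probe sets, with a threshold of 0.05.

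Intensities are given on the authors' linear scale. Levels of different probe sets are not comparable with each other. As a guide to background, 27 control probe sets for bacterial transcripts had intensities from 8 to 34 over the 6 arrays, with a median of 11.5. In RNA from whole cultures, a change in the share of cells that express a gene and a change in RNA per cell cannot be told apart.

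**Figure D1:**
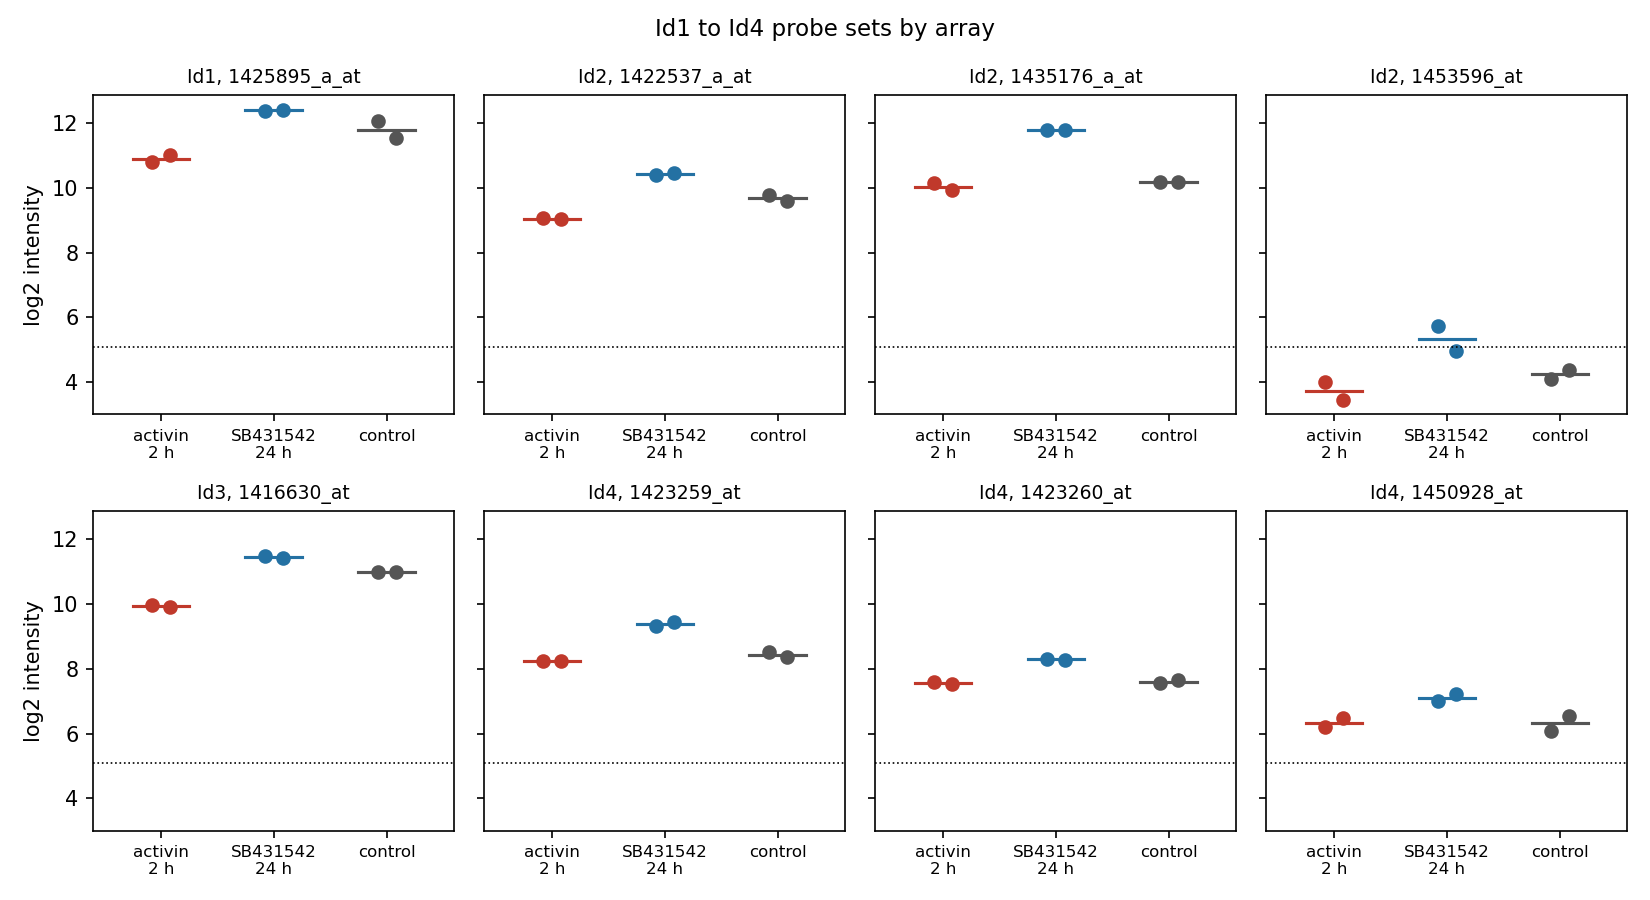
Log2 intensity (vertical axis) of the 8 Id probe sets on each array, with 1 panel per probe set; points are arrays, horizontal bars are group means of 2 arrays, and the dotted line is the highest bacterial background value, log2 5.09. In every panel both SB431542 arrays lie above both control arrays. In the fourth panel, Id2 1453596_at, all arrays but SB431542 replicate 1 lie under the background line.

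Id1, whose human and mouse promoters contain a well-studied BMP-responsive element, had the widest spread between control arrays of the 8 Id probe sets. Its probe set 1425895_a_at had intensities of 1768 and 2073 after activin, 5308 and 5483 after SB431542, and 4298 and 2951 in control. The 3 groups did not overlap, but the 2 controls differed 1.46-fold. On the log2 scale it averaged 10.90 ± 0.16 after activin and 11.80 ± 0.38 in control (SD, n = 2 each), a difference of −0.90 (SE 0.21, limma adjusted p = 0.789, and 0.194 with the intensity trend). After SB431542 it averaged 12.40 ± 0.03, a difference from control of 0.60 (SE 0.21, limma adjusted p = 0.348, and 0.122 with the intensity trend). Neither difference passed. Both sizes depended on which control array was kept: the activin difference was −0.62 without control replicate 1 and −1.17 without control replicate 2, and the SB431542 difference was 0.87 and 0.33. With the intensity trend and 1 array left out, both differences passed in some fits and missed in others. Leaving out 1 control removes the spread between the 2 controls from the fit. Leaving out 1 SB431542 array kept both controls and the activin difference of −0.90, yet the SE of that difference went from 0.17 to 0.09. Such fits therefore cannot show whether the Id1 differences hold.

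Id2 showed the largest response of the family to SB431542 by its brightest probe set. That probe set, 1435176_a_at, had intensities of 1126 and 986 after activin, 3502 and 3551 after SB431542, and 1153 and 1172 in control. Both SB431542 arrays stood about 3.03-fold above the controls, and the activin arrays lay just under the controls. The SB431542 difference was 1.60 on the log2 scale (SE 0.13, 95% interval 1.28 to 1.92, limma adjusted p = 0.0978), and it rose with the intensity trend (adjusted p = 2.76e-15). It ranked 24 from the highest among the log2 differences of all 45037 probe sets. The activin difference was −0.14 (SE 0.13, 95% interval −0.46 to 0.18, limma adjusted p = 0.900, and 0.826 with the intensity trend).

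A second Id2 probe set, 1422537_a_at, had intensities of 533 and 525 after activin, 1341 and 1398 after SB431542, and 882 and 774 in control. Here the activin arrays stood clearly under the controls and the 3 groups did not overlap. The activin difference was −0.64 (SE 0.13, 95% interval −0.96 to −0.32, limma adjusted p = 0.789), and it fell with the intensity trend (adjusted p = 0.00108) but did not pass with the trend alone (limma adjusted p = 0.0864). The SB431542 difference was 0.73 (SE 0.13, 95% interval 0.41 to 1.05, limma adjusted p = 0.184), and it rose with the intensity trend (adjusted p = 1.14e-05). The 2 probe sets of Id2 thus gave different sizes for both treatments. Their difference within an array, 1435176_a_at minus 1422537_a_at, was 1.08 and 0.91 log2 units after activin, 1.38 and 1.34 after SB431542, and 0.39 and 0.60 in control. The 3 groups did not overlap in this difference, which was not tested.

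The third Id2 probe set, 1453596_at, had intensities of 16 and 11 after activin, 53 and 31 after SB431542, and 17 and 21 in control. All but 1 of these values lay at or under the highest bacterial value of 34, so its fold is limited by background. Its SB431542 difference was 1.10 (SE 0.32, limma adjusted p = 0.295) and rose with the intensity trend (adjusted p = 0.0449), but missed the threshold with the trend alone (0.136), and without SB431542 replicate 1 (0.469), control replicate 1 (0.242) or control replicate 2 (0.0710). Its activin difference was −0.51 (SE 0.32, limma adjusted p = 0.857, and 0.826 with the intensity trend).

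Id3 fell after activin, and its difference was the lowest of the 8 probe sets with all arrays in the fit, although without control replicate 2 Id1 was lower (−1.17, against −1.04 for Id3). Its probe set 1416630_at had intensities of 1014 and 956 after activin, 2892 and 2755 after SB431542, and 2025 and 2031 in control. The arrays of each group lay close together and no groups overlapped. It averaged 9.94 ± 0.06 after activin and 10.99 ± 0.00 in control (SD, n = 2 each), 2.06-fold lower, a log2 difference of −1.04 (SE 0.12, limma adjusted p = 0.789), and fell with the intensity trend (adjusted p = 2.36e-09). Its activin difference ranked 26 from the lowest of all probe sets. After SB431542 it averaged 11.46 ± 0.05, a difference of 0.48 (SE 0.12, 95% interval 0.18 to 0.77, limma adjusted p = 0.253), and rose with the intensity trend (adjusted p = 4.60e-04). With each array left out in turn, the activin and the SB431542 difference each passed with the intensity trend in 6 of 6 fits.

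Id4 was higher after SB431542 by all 3 probe sets and lay near control after activin. Probe set 1423259_at had intensities of 303 and 306 after activin, 637 and 698 after SB431542, and 370 and 328 in control. Its SB431542 difference was 0.94 (SE 0.13, 95% interval 0.61 to 1.26, limma adjusted p = 0.162), and it rose with the intensity trend (adjusted p = 3.30e-06). Probe set 1423260_at had intensities of 194 and 184 after activin, 319 and 311 after SB431542, and 190 and 200 in control. In it the activin and control arrays overlapped. Its SB431542 difference was 0.69 (SE 0.12, limma adjusted p = 0.182, and 0.00381 with the intensity trend). Probe set 1450928_at had intensities of 74 and 89 after activin, 129 and 149 after SB431542, and 68 and 94 in control, again with activin and control overlapping. Its SB431542 difference was 0.79 (SE 0.21, limma adjusted p = 0.270, and 0.0433 with the intensity trend). The call of 1450928_at was lost with the trend alone (limma adjusted p = 0.116). With the intensity trend, 1450928_at missed the threshold without either SB431542 array (0.169 and 0.414) or without control replicate 1 (0.280), and 1423260_at without either SB431542 array (0.0913 and 0.0526). The activin differences of the 3 Id4 probe sets were −0.19, −0.05 and 0.02, with 95% intervals of −0.52 to 0.13, −0.34 to 0.25 and −0.50 to 0.54, and did not pass.

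The order of the group means was the same in 7 of 8 probe sets, with SB431542 highest, control between and activin lowest. The exception was Id4 1450928_at, whose activin mean was 0.02 above control. The step between SB431542 and control exceeded the spread between arrays in all 8 probe sets. Activin and control were neighbours that overlapped in 2 of 8, both Id4. After activin, 6 of 8 probe sets had both arrays under both controls, where 14.5% of all probe sets did. After SB431542, 8 of 8 had both arrays above both controls, where 20.6% of all probe sets did.

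Read against all probe sets, the 8 Id probe sets had a median log2 difference of −0.35 after activin and 0.76 after SB431542, beside medians of −0.00 and −0.03 over all 45037. With the intensity trend, 2 of 8 were called lower and 0 higher after activin, where 0.0200% of all probe sets were called lower and 0.195% higher. After SB431542, 7 of 8 were called higher and 0 lower, where 3.38% of all were called higher and 1.60% lower. The default test called 0% of all probe sets after activin and 0.0155% after SB431542. An unadjusted p under 0.05 was reached by 6.21% of all after activin and by 13.0% after SB431542. The 2 comparisons share the control arrays. The members of 1 gene's set of probe sets measure the same transcripts and are not independent of each other.

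**Figure D2:**
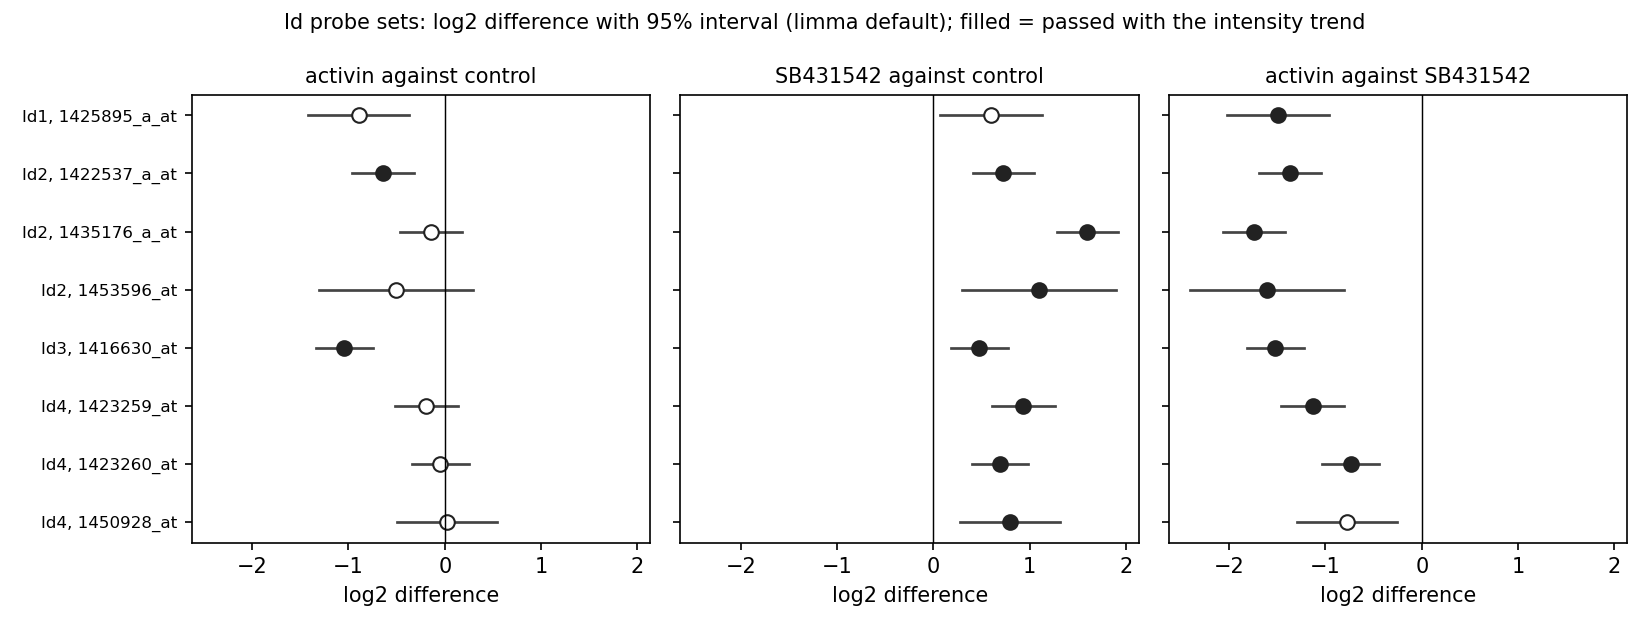
Log2 difference (horizontal axis) of the 8 Id probe sets in the 3 comparisons, with 95% intervals from limma at default settings; filled circles passed with the intensity trend at 0.05. After activin 2 circles left of 0 are filled, after SB431542 7 right of 0, and between the treatments 7 left of 0.

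The direct comparison of activin with SB431542 takes its difference from the 4 treated arrays and its variance from all 6 arrays, the controls included. It sets 2 h of activin beside 24 h of the inhibitor, so agent and time differ together. All 8 Id probe sets were lower after activin, by −0.74 to −1.74 log2 units, and no groups overlapped, where 18.2% of all probe sets lay lower without overlap. An unadjusted p under 0.05 was reached by 8 of 8, and by 9.04% of all. With the intensity trend 7 of 8 were called lower, where 1.47% of all probe sets were called lower. By default 0 of 8 passed, where 0.0200% of all did. The differences of the brighter probe sets were −1.74 (SE 0.13) and −1.37 (SE 0.13) for Id2, −1.52 (SE 0.12) for Id3 and −1.49 (SE 0.21) for Id1. Their adjusted p was 0.0659, 0.0986, 0.0734 and 0.188 by limma at default settings, and 1.60e-16, 9.72e-12, 3.35e-15 and 0.00538 with the intensity trend. Id4 differed by −1.13 (SE 0.13), −0.74 (SE 0.12) and −0.77 (SE 0.21), and the last of these, 1450928_at, did not pass with the intensity trend (adjusted p = 0.0881). With 1 array left out, Id1 missed that threshold without activin replicate 1 (limma adjusted p = 0.0868), Id2 1453596_at without activin replicate 2 (0.0903) or SB431542 replicate 1 (0.0870), and Id4 1423260_at without SB431542 replicate 1 (0.101) or 2 (0.0580). With the trend alone, Id2 1453596_at did not pass (limma adjusted p = 0.0598). Id4 1450928_at passed without either control array (0.0308 and 0.0443).

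The treatments were checked on Lefty1 and Lefty2, Nodal antagonists that Nodal itself induces. Lefty2 had intensities of 1348 and 1253 after activin, 14 and 16 after SB431542, and 497 and 493 in control. Lefty1 had 4089 and 4671 after activin, 48 and 26 after SB431542, and 1756 and 1524 in control. Both passed by default after SB431542 (limma adjusted p = 0.00296 for Lefty2 and 0.0341 for Lefty1). After activin neither passed by default (0.789 for each). With the intensity trend Lefty2 rose (adjusted p = 2.03e-06) and Lefty1 did not pass (0.341). The cells were checked on 10 stem cell markers, all above the highest bacterial value on every array, with summed intensities of 55369 to 55860 after activin, 47998 to 48785 after SB431542 and 54474 to 55614 in control. The log2 difference of the 3′ and 5′ probe sets of beta-actin, a sign of RNA integrity, ran from 0.24 to 0.28, from 0.20 to 0.27 and from 0.22 to 0.32 in these groups.

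Other genes of the BMP pathway were set beside the Id genes, each by its brightest probe set. The gene lists here and below were chosen with earlier results of these data known, so their counts are no independent support. Gata3 and Hand1 are counted again among the trophectoderm markers. Of 16 other BMP target genes, 6 rose and 1 fell with SB431542 by the intensity trend, with a median log2 difference of 0.40, where 4.25% of all 18193 genes rose, 2.23% fell and the median was −0.00. The 6 were Gata3 (1.29), Hand1 (1.09), Dlx3 (1.02), Gata2 (0.95), Msx2 (0.88) and Smad6 (0.70). Gata2 and Gata3 are zinc-finger factors used in trophoblast, Hand1 is a bHLH factor, Dlx3 and Msx2 are homeobox factors, and Smad6 is an inhibitory Smad that acts on BMP receptors. The member that fell was Smad7 (−0.66), an inhibitory Smad that activin also induces. Of those not called, Msx1 was at −0.32, Bambi, a BMP pseudoreceptor, at 0.10 and Tbx3 at 0.10. After activin 0 of these 16 passed, where 0.148% of all genes did, with a median of 0.12, and Smad6 was at 0.21. Between the treatments, 4 of 16 were lower after activin and 1 was higher by the intensity trend, where 2.12% of all genes were lower and 1.26% higher. Those lower were Gata3 (−1.45), Gata2 (−1.01), Hand1 (−0.91) and Msx2 (−0.89), and Smad7 was higher (1.04).

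Ligands, receptors and Smads of the BMP pathway came next. Of 13 genes, 0 passed after activin and 1 fell with SB431542 by the intensity trend, Bmpr2 (−0.58), a type II receptor. Of all genes, 0.148% were called after activin and 2.23% were lower after SB431542. The median was −0.14 after activin and −0.18 after SB431542, with 11 of 13 and 9 of 13 below control. The 4 genes above control after SB431542 were Smad1, Smad4, Bmp4 and Acvr1. Smad1, which carries the BMP signal, was at 0.26 after activin and 0.19 after SB431542, and Smad4, the shared partner Smad, at −0.01 and 0.21. Bmp4 was at −0.24 and 0.08, and Acvr1, a type I receptor, at 0.21 and 0.25.

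The partners of Id proteins were also read. The E proteins Tcf3, Tcf4 and Tcf12 were at 0.03, 0.17 and 0.09 after activin and at 0.04, 0.03 and 0.37 after SB431542, and 0 of 3 passed in any comparison. Of 21 measured bHLH partners of E proteins, 0 passed after activin and 2 rose with SB431542 by the intensity trend: Ascl2 (2.03), needed in the trophoblast lineage, which also passed by default (limma adjusted p = 0.0457), and Hand1. Over all genes, 0.148% were called after activin and 4.25% were higher after SB431542. The median of the 21 was −0.08 after activin and −0.30 after SB431542, and 10 to 14 of them lay at or under the highest bacterial value on each array. Tcf15, a bHLH factor of epiblast cells primed for differentiation, was at −0.30 after activin and −0.35 after SB431542, Neurod1 at −0.15 and −0.66, and Mesp1 at −0.01 and −0.30.

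**Figure D3:**
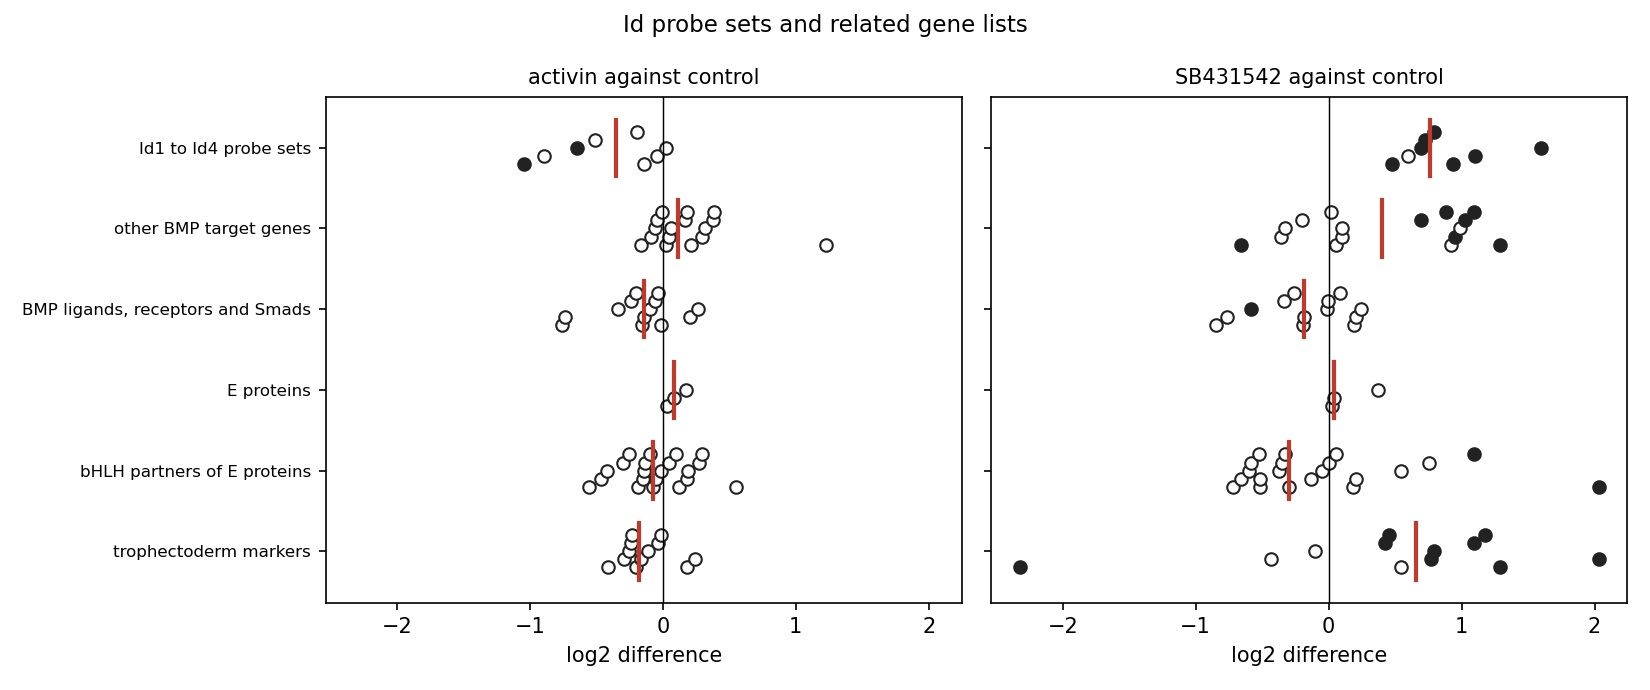
Log2 difference against control (horizontal axis) of the 8 Id probe sets and of the brightest probe set of each gene in 5 lists, after activin (left) and SB431542 (right); filled circles passed with the intensity trend and red bars are medians. The Id median is −0.35 on the left and 0.76 on the right, and the other BMP target genes have medians of 0.12 and 0.40.

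Of the markers of trophectoderm, the outer layer of the blastocyst, 9 lay above control after SB431542 and 3 below (Eomes, Elf5 and Cdx2). Of 12 markers, 8 rose and 1 fell by the intensity trend, where 4.25% of all genes rose and 2.23% fell, and their summed intensity was 18171 to 18417 after SB431542 and 11979 to 13791 in control. Those that rose were Ascl2, Gata3, Esx1 (1.18), Hand1, Tfap2c (0.79), Plac1 (0.77), Krt18 (0.46) and Krt8 (0.43). Eomes fell (−2.32, limma adjusted p = 0.0457), Krt7 was at 0.54, Elf5 at −0.43 and Cdx2, an early trophectoderm factor, at −0.11. After activin 0 of 12 passed, 10 of 12 lay below control, and the summed intensity was 11223 to 11489. Of the 12, 1 or 2 lay at or under the highest bacterial value on each array, and Elf5 did so on all 6. Of the 10 stem cell markers, 6 fell after SB431542 by the intensity trend, Pou5f1 (−0.43), Tfcp2l1 (−0.42), Utf1 (−0.33), Dppa5a (−0.28), Tdgf1 (−0.26) and Nanog (−0.24), and Klf4 rose (0.50), beside the same 2.23% of all genes lower and 4.25% higher. Sox2, Zfp42 and Esrrb were at −0.05, 0.01 and 0.11. The part of these cell type markers in the Id result was not tested.

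The genes whose log2 profile over the 6 arrays was most like each Id gene were taken from 513 genes with a mean of at least log2 6 and a range of at least 1. These correlations over 6 arrays, which fall into 3 groups, are descriptions. Id3 was most like Id1 (Pearson r = 0.953), followed by Tmem35b (0.943) and Snai2 (0.942), and the mean of Snai2 was 5.75 after activin, 6.86 after SB431542 and 6.57 in control. Id1 was most like Slc22a23 (0.972), Marveld3 (0.966) and the keratin gene Krt7 (0.960). Id2 was most like Afap1 (0.996), Fabp3 (0.993) and Gata2 (0.993), and Id4 like Fabp3 (0.995), Gata2 (0.993) and Gramd4 (0.993). Fabp3, a fatty acid binding protein, and Gata2 were thus near both Id2 and Id4. Fabp3 averaged 9.75 after activin, 10.73 after SB431542 and 9.83 in control.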

How the data were processed

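The authors deposited 1 linear intensity per probe set and array, as whole numbers, and RMA is named per the submitters' processing notes, with no version. Which software ran it is not given in the sources used here. Rounding makes the steps of dim values coarse. Intensities were converted to log2 with no further normalization, and 64 Affymetrix control probe sets were left out, leaving 45037, of which 34945 carry 1 gene symbol, 932 several and 9160 none. Symbols were updated through Entrez identifiers, which changed 0. Groups and replicate numbers came from the sample titles. One title and the condition labels spell the inhibitor SB432542, and the treatment protocol SB431542, which is used here. The median intensity of an array ran from 37 to 49. With 2 arrays a group, their number sets the precision.

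One limma model (version 3.58.1, R 4.3.3) held all 6 arrays and a mean for each group, leaving 3 residual degrees of freedom, with prior degrees of freedom of 2.51 by default (median 34.3 with the intensity trend and robust estimation). P-values were adjusted over all probe sets. Listed genes were each read from their brightest probe set over the 6 arrays (18193 genes). Gene lists held 100 entries, of which 98 were measured, and Hand1, Gata3, Ascl2 and Neurog2 are in 2 or more lists. All Id probe sets are named, with 3 most similar genes for each Id gene, list members past the threshold in either setting and up to 3 further members per list with a mean of at least log2 6. Bmp4 and Elf5 (mean log2 4.10) are named outside this rule. The members and lists were chosen with earlier results of these data known. Alternatives were other priors, normalizations, filters, blocks and left-out arrays. The fit was tested on simulated data.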

Additional observations from a re-analysis of the deposited data

How the results depend on the processing

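Counts of calls depended on the variance prior, which cannot alter a direction. Under the other normalizations and with arrays left out, directions of the Id probe sets were kept, with 1 exception. Among the 8 Id probe sets, limma at default settings called 0 in each comparison, also without each array in turn. In activin against control the count was 2 with the trend of the prior, 1 after shifting arrays to 1 median, 1 with the trend alone, 2 with trend and the dimmest 40% left out, and 2 to 3 with the trend and each array left out. In SB431542 against control these were 7, 3, 5, 6 and 5 to 7, with 1 after repeated quantile normalization and 1 with the dimmest 40% left out by default. In activin against SB431542 they were 7, 6, 6, 6 and 5 to 8, with 3 after quantile normalization, 3 with the dimmest 40% left out and 1 without variance moderation. The Id2 probe set 1453596_at is among the dimmest 40%, so 7 were then tested. With arrays shifted to 1 median, every Id probe set had the same SE against control, 0.269. By default these SEs ran from 0.118 to 0.320. The shifted fit thus called Id probe sets by the size of their difference, without the spread of each. Its counts do not isolate normalization. Id4 1450928_at in activin against control, not called at 0.02, turned to −0.027 with quantile normalization, −0.043 after shifting arrays, −0.21 without control replicate 1 and −0.11 without activin replicate 2, and ran up to 0.26 without control replicate 2.

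Over all probe sets, activin against control called 0 by default and 0 with any 1 array left out, 97 with the trend and robust estimation, 78 with columns shifted (40 higher, 38 lower), 65 without moderation, 4 with the trend alone, 104 with the trend and the dimmest left out, and 21 to 201 with the trend and an array left out. SB431542 against control called 7 by default, 0 with any 1 array left out, and 2242, 791 (427 higher, 364 lower), 95, 1200, 2457 and 947 to 2560 under the same alternatives, with 40 after quantile normalization, 21 with the dimmest left out and 0 with only the 4 arrays compared. Activin against SB431542 called 9, 0, 1024, 412 (204 higher, 208 lower), 79, 434, 1189 and 402 to 1493, with 49, 30 and 0 under the last 3. With columns shifted, the Id probe sets shared an SE of 0.269 against control, so the shifted counts do not isolate normalization. What caused the other changes in count was not tested.

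The replicate numbers are not stated to mark a shared batch and were not used as pairs. Same-numbered arrays did not deviate together (r = −0.09, −0.14 and 0.02 between groups). Control replicate 2 was more like activin replicate 1 (Pearson r = 0.99071) than the 2 controls (0.98945) or the 2 activin arrays (0.98923) were like each other. Control replicate 1 and activin replicate 2 were not (0.98846). Whether arrays of different groups share a batch was not tested. With a replicate block, 0 Id probe sets were called in each comparison, and 0, 0 and 1 over all probe sets in the order above. With the block and the intensity trend the Id counts were 3, 7 and 7, and those over all were 157, 2228 and 1057. With the activin numbers exchanged in the block, the counts over all were 0, 2 and 3. The trend alone, robust estimation alone, the trend with arrays left out, with the dimmest left out or with the block, and the exchanged numbers were chosen after seeing the data. Dim probe sets near the bacterial values limit the folds of Id2 1453596_at.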

Other observations

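Markers of 3 other cell types that the cultures could hold were read beside shares over all genes of 0.148% called after activin, and 4.25% higher and 2.23% lower after SB431542. Of 8 fibroblast markers, none of the 8 passed after activin, and with SB431542 the intensity trend called 1 lower, Col1a1 (−0.98), a fibrillar collagen chain. Of 7 measured neuroectoderm markers, 0 passed after activin and 1 rose after SB431542, Pax6 (0.74), a paired-box factor of early neural tissue, while Nes was at −0.35 and Ncam1 at −0.33. Of 8 primitive endoderm markers 0 passed in any comparison, with summed intensities of 382 to 501 after activin, 401 to 411 after SB431542 and 398 to 476 in control. After activin 8 of 8 fibroblast markers lay above control without a call, with a median of 0.32, beside −0.01 over all genes. Their summed intensity was 426 to 473, against 343 to 380 in control. On each array 2 to 4 of these 8 lay at or under the highest bacterial value, which limits their differences. The same held for 2 to 5 of the 8 primitive endoderm and 2 to 4 of the 7 neuroectoderm markers.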
